A study of Mus musculus with 12 samples.

Results

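The growth hormone and insulin-like growth factor (IGF) axis was followed through 10 genes, Ghr, Stat5b, Igf1, Igfals, Socs2, Cish, Igfbp1, Igfbp2, Igfbp3 and Igf1r, taken by name from the 26301 genes of the count matrix. All 10 passed the filter on low counts, among 13882 tested genes. Liver RNA came from 4 wild-type control livers without tumors, 4 spontaneous liver tumors labelled DKO, from Alb-Cre mice lacking E2f7 and E2f8, and 4 labelled TKO, from Alb-Cre mice lacking Rb1 as well. All mice were adult, on an FVB background, with no treatment named in the labels. For stained sections of these genotypes, the paper gives tumors collected at the end of life and controls analyzed at the same time point. Ages of the sequenced mice are not given in the sources used here. The paper reports shorter lives in TKO mice and a longer tumor latency in DKO mice. Age and genotype therefore cannot be told apart between the tumor groups. The albumin promoter drives Cre in hepatocytes, so other cells of the tumors keep the genes, and because both knockout groups are tumors while the controls are not, genotype and tumor state cannot be told apart against control.

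Growth hormone from the pituitary binds its receptor, Ghr, on hepatocytes, which activates the kinase Jak2 and the transcription factor Stat5b. Stat5b switches on Igf1, the growth factor that the liver secretes into blood, and Igfals, the acid-labile subunit that holds Igf1 there in a complex with Igfbp3. It also switches on Socs2 and Cish, inhibitors that restrain the same receptor. Igfbp1 and Igfbp2 bind IGF outside that complex, Igfbp1 is repressed by insulin, and Igf1r is the IGF receptor, which normal hepatocytes hardly express.

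Total counts ranged from 9165812 to 16424973 per library. Of the deleted genes, Rb1 lay at 3.21 to 5.47 CPM (counts scaled to a common library total, with TMM factors) in TKO tumors against 6.52 to 10.7 in control livers and 7.99 to 11.3 in DKO tumors. E2f7 had 4 to 24 counts in every library, and E2f8 was not lower in the tumors, at 7.59 to 45.6 CPM in DKO and 12.3 to 52.2 CPM in TKO against 4.52 to 8.97 CPM in control livers, so these whole-gene counts did not check those deletions. Hepatocyte markers, 7 of 8 matched, summed to 88000 to 141000 CPM in control livers. The sums were 128000 to 328000 in DKO and 50500 to 244000 in TKO tumors, and no marker was at 0 throughout a group. Albumin made up most of these sums, with 286000 of 328000 CPM in DKO 1 and 37600 of 50500 in TKO 4. By gene, 4 of 7 hepatocyte markers had a log2 change above 0 in DKO against control, with a median of 0.2. In TKO 2 of 7 did, with a median of -0.1. Albumin itself took 4.82% of counts in TKO 4, the lowest, and 22.7% in DKO 1, the highest. In bulk tissue, fewer cells of a type and less RNA per cell cannot be told apart.

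Promoters of 9 members, 14 in all, were matched in the RefSeq table of GRCm38.p6, and 250 bases before each start were searched on both strands. The letters TTCNNNGAA, which Stat5 proteins bind, stood before 2 of the 3 Igfals starts, 236 and 58 bases away, and before no other member, while 7.02% of 32851 promoters held them. The E2F letters TTTCCCGC and TTTGGCGC were before none of the 14 and in 1.3% of all promoters. The letters TGTTTTG, the core of insulin response elements, a motif added after the values were seen, stood before Igfbp1 alone, 108 bases away on the opposite strand, and in 5.56% of all promoters. None of these letter patterns overlapped another in the members. The 2 stretches are shown because Igfals is a liver target of Stat5b and Igfbp1 is the member with the largest change. Both were placed in mm9 by exact match and contain no exon of GENCODE vM1. The Igfals stretch, at chr17:25015026-25015175 on the plus strand, lies between exons of the annotated gene, and the Igfbp1 stretch, at chr11:7097640-7097779 on the plus strand, ends just before its first exon. Capitals mark the motif.
Igfals: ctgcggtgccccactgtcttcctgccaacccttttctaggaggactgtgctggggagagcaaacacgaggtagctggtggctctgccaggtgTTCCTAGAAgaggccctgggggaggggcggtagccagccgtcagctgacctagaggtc
Igfbp1: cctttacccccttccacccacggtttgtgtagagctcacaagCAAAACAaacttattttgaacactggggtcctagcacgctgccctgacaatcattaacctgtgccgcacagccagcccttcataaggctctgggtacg

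In DKO tumors, Igfbp1 rose 11.4-fold, and it was the one member of 10 past edgeR's adjusted p of 0.05 against control livers. Across all tested genes that share was 2.42%, with 1.41% higher and 1.01% lower. At an unadjusted p under 0.05, 5 of 10 members stood out (Cish, Ghr, Igfals, Igfbp1 and Igfbp3) against 24.0% of all genes. These were 2 higher, against 12.9% of all genes, and 3 lower, against 11.1%. DESeq2, with its own adjusted p, called Cish, Igfals, Igfbp1 and Igfbp3, 4 of 10 against 10.4% of its tested genes, 2 of them higher (5.70% of all) and 2 lower (4.75%). The 4 DKO and 4 control values did not overlap for 2 members, Ghr and Igfbp1, against 16.2% of all genes. The median log2 change of the 10 members was -0.28 against 0.02 for all genes.

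In TKO tumors no member was called by edgeR, where 0.0864% of all genes were. At an unadjusted p under 0.05, Cish, Igfals and Igfbp1 stood out, 3 of 10 against 16.3%. DESeq2 called 0 members against 3.49% of its tested genes. For 1 member, Igf1, the TKO and control values did not overlap, against 7.67% of all genes. The median log2 change of the members was -0.23. Both tumor groups were set against the same 4 control livers, so the changes in them are not independent.

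**Figure D1:**
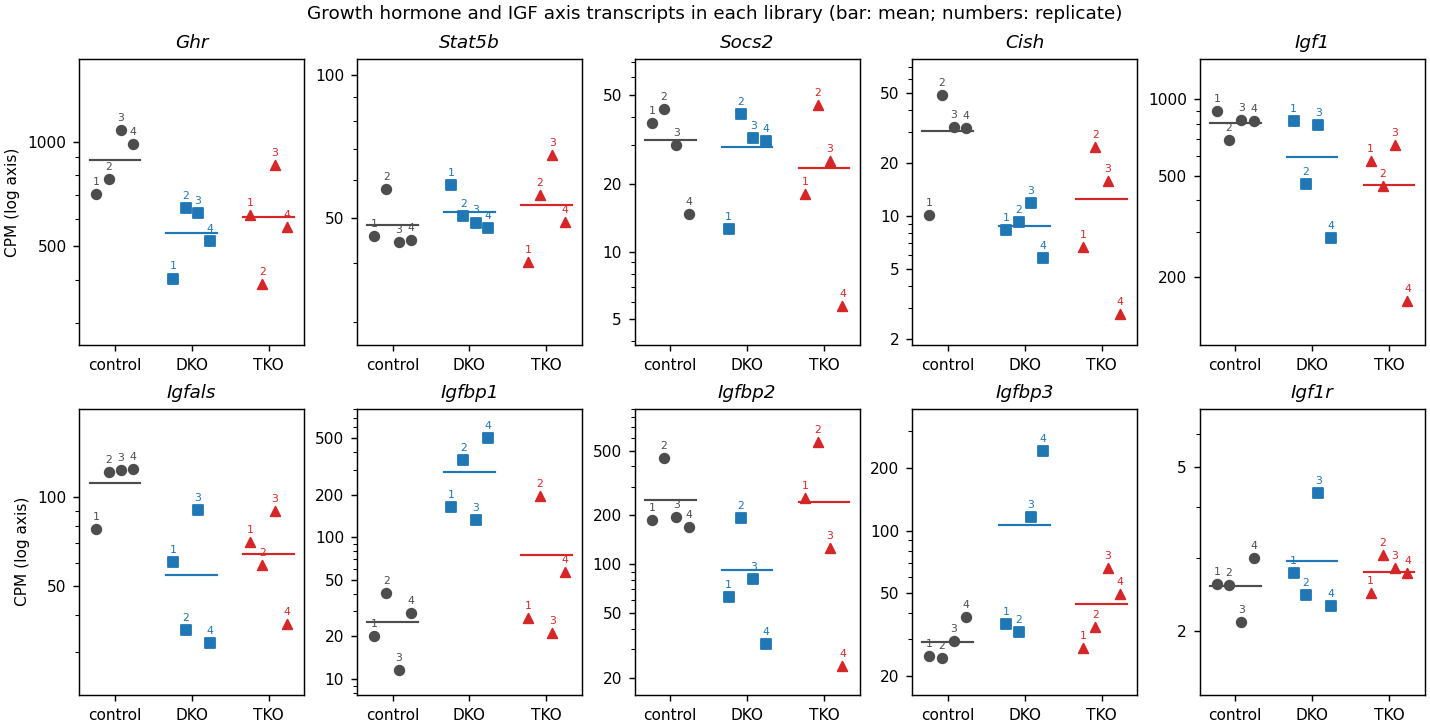
CPM of each member on a log axis, with 1 point per library, numbered by replicate, in columns for control, DKO and TKO, and a bar at the group mean. Igfbp1 lies at 133 to 505 in DKO tumors and 11.6 to 40.4 in control livers, while Stat5b spans 40.2 to 67.7 over all 12 libraries.

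Ghr, the growth hormone receptor (Entrez 14600, mm9 chromosome 15, 3267760 to 3533492, minus strand), was at 706, 778, 1080 and 984 CPM in control livers 1 to 4. It was at 403, 643, 624 and 516 CPM in DKO tumors and 613, 388, 855 and 569 CPM in TKO tumors. Every DKO tumor was below every control liver, and 3 of 4 TKO tumors were. The log2 change in DKO was -0.7 (SE 0.262, 95% interval -1.27 to -0.13), with an adjusted p of 0.13 in edgeR and 0.0551 in DESeq2. The two-sided exact permutation p over the 70 assignments of libraries was 0.0286, the smallest it can give. In TKO the log2 change was -0.55 (SE 0.261), with an edgeR adjusted p of 0.322.

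Stat5b, the main transcription factor downstream of the receptor in liver (Entrez 20851, chromosome 11, 100642045 to 100712038, minus strand), was level. It was at 45.7, 57.5, 44.3 and 44.9 CPM in control livers, 58.5, 50.3, 48.8 and 47.5 in DKO tumors and 40.2, 55.9, 67.7 and 49 in TKO tumors. The 3 groups overlapped. The log2 change was 0.09 in DKO, with an interval of -0.26 to 0.44, and 0.15 in TKO, with an interval of -0.2 to 0.49.

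Neither inhibitor of the receptor passed the edgeR threshold in any comparison. Cish (Entrez 12700, chromosome 9, 107198357 to 107205115, plus strand) was at 10.1, 48.6, 31.9 and 31.4 CPM in control livers, 8.28, 9.25, 11.8 and 5.78 in DKO tumors and 6.63, 24.5, 15.8 and 2.76 in TKO tumors. Only control liver 1 lay within the DKO range. Its log2 change in DKO was -1.79 (SE 0.583, interval -3.06 to -0.53), with an edgeR adjusted p of 0.0952, a DESeq2 adjusted p of 0.0226 and an exact permutation p of 0.0571. In TKO it was -1.29 (SE 0.573), with an edgeR adjusted p of 0.291.

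Socs2 (Entrez 216233, chromosome 10, 94847996 to 94879814, minus strand) was at 37.7, 43.5, 29.8 and 14.8 CPM in control livers. It was at 12.6, 41.1, 32.1 and 31.2 CPM in DKO tumors and 18.1, 45.2, 25.3 and 5.74 CPM in TKO tumors. All groups overlapped, and both the highest and the lowest value were from TKO tumors. The log2 change was -0.1 in DKO, where its interval of -1.23 to 1.03 leaves more than a doubling or halving unresolved, and -0.41 in TKO. Counts of Cish per 100 counts of Socs2 were 26.8 to 212 in control livers, 18.5 to 65.9 in DKO and 36.5 to 62.4 in TKO tumors, a ratio chosen after the values were seen.

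The circulating ligand and its carrier were lower on average in both tumor groups, with neither past the edgeR threshold. Igf1 (Entrez 16000, chromosome 10, 87321010 to 87399792, plus strand) was at 900, 689, 828 and 821 CPM in control livers. It was at 821, 465, 793 and 283 CPM in DKO tumors and 571, 454, 659 and 161 CPM in TKO tumors. All 4 TKO tumors were below all control livers, but DKO tumors 1 and 3 were within the control range. The log2 change was -0.81 in TKO (SE 0.41, interval -1.7 to 0.08), with an edgeR adjusted p of 0.351 and an exact permutation p of 0.0286. Without TKO 4, the tumor with the smallest albumin share, it was -0.54. In DKO it was -0.45 (SE 0.408), with an edgeR adjusted p of 0.528.

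Igfals (Entrez 16005, chromosome 17, 25014600 to 25018955, plus strand), whose upstream Stat5 letters are given above, was at 78.2, 121, 123 and 124 CPM in control livers. It was at 60.6, 35.6, 90.1 and 32.3 CPM in DKO tumors and 70.3, 58.8, 89.7 and 37.4 CPM in TKO tumors. In each tumor group 3 of 4 libraries were below every control liver, and the third library lay above control liver 1. The log2 change in DKO was -1.03 (SE 0.337, interval -1.76 to -0.3), with an edgeR adjusted p of 0.0961, a DESeq2 adjusted p of 0.0383 and an exact permutation p of 0.0571. In TKO it was -0.8 (SE 0.336), with an edgeR adjusted p of 0.264.

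**Figure D2:**
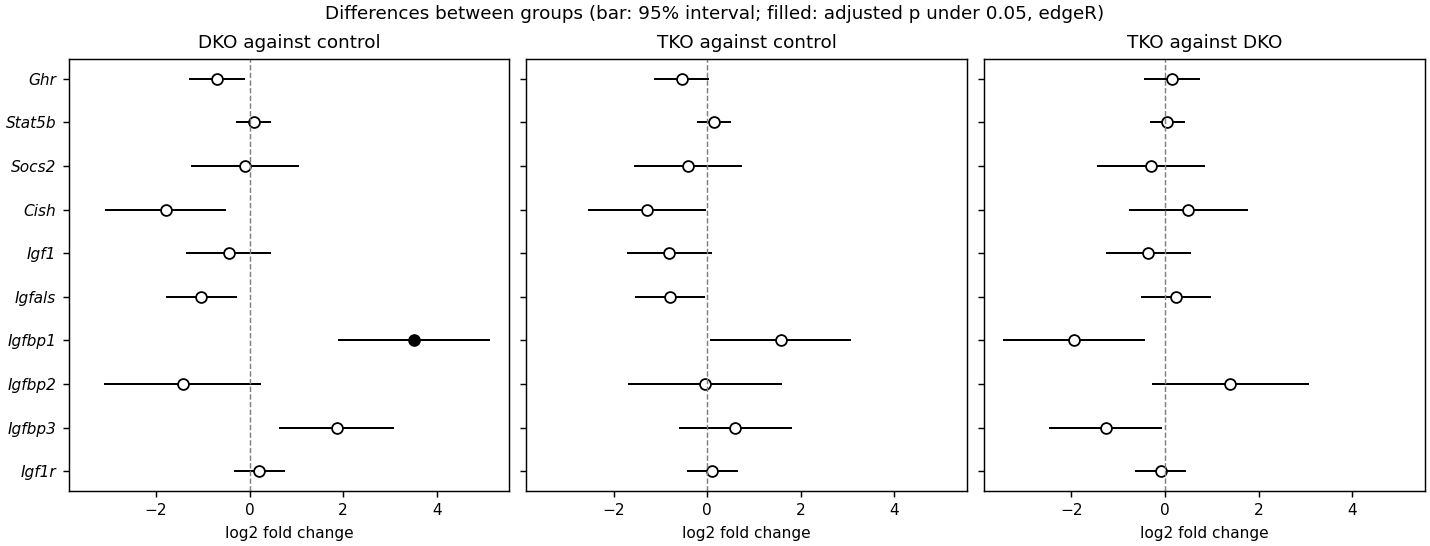
Log2 fold change of each member against control livers in DKO and TKO tumors, and between the tumor genotypes, with 95% intervals from the edgeR fit. Igfbp1 in DKO, at 3.51, is the one filled point, the only member called by edgeR.

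Of the binding proteins, Igfbp1 alone passed the edgeR threshold, in DKO tumors. Igfbp1 (Entrez 16006, chromosome 11, 7097785 to 7102549, plus strand) was at 20, 40.4, 11.6 and 29.4 CPM in control livers. It was at 164, 353, 133 and 505 CPM in DKO tumors and 26.9, 195, 21.1 and 56.7 CPM in TKO tumors. Every DKO tumor was above every control liver, whereas TKO tumors 1 and 3 were within the control range. The log2 change in DKO was 3.51 (SE 0.739, interval 1.91 to 5.12), with an edgeR adjusted p of 0.0425, a DESeq2 adjusted p of 1.59e-05 and an exact permutation p of 0.0286.

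The edgeR call of Igfbp1 was lost, with adjusted p values of 0.0511 to 0.134, when any of control livers 1 to 4, DKO 1, 2 or 4, or TKO 1 was left out. The log2 change stayed between 3.1 and 3.83 over all alternatives. In TKO it was 1.57 (SE 0.689), with an edgeR adjusted p of 0.286, and 0.46 without TKO 2.

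Igfbp2 (Entrez 16008, chromosome 1, 72871077 to 72899048, plus strand) was at 188, 447, 194 and 170 CPM in control livers. It was at 62.6, 193, 81.5 and 32.3 CPM in DKO tumors and 256, 565, 125 and 23.6 CPM in TKO tumors. DKO tumors 1, 3 and 4 were below all control livers, and TKO tumors held both the highest and the lowest value of the 12 libraries. The log2 change in DKO was -1.43 (SE 0.763), with an edgeR adjusted p of 0.273 and an exact permutation p of 0.0857. It was -0.99 without control 2, -2.09 without DKO 2 and -3.02 with the Y-linked covariate, none of them past the edgeR threshold. In TKO it was -0.04, with an interval of -1.67 to 1.58.

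Igfbp3 (Entrez 16009, chromosome 11, 7106089 to 7113926, minus strand), a neighbor of Igfbp1 that liver makes mostly outside hepatocytes, was at 24.8, 24.3, 29.5 and 38.2 CPM in control livers. It was at 35.6, 32.4, 116 and 241 CPM in DKO tumors and 27.2, 34.2, 66 and 49.5 CPM in TKO tumors. The higher DKO values were those of tumors 3 and 4, and the other two were within the control range. The log2 change in DKO was 1.86 (SE 0.557), with an edgeR adjusted p of 0.0806 and a DESeq2 adjusted p of 0.0116, and without DKO 4 it was 1.07, with an edgeR adjusted p of 0.179. Macrophage markers summed to 197, 172, 447 and 65.7 CPM in DKO tumors 1 to 4, and to 205 to 541 in control livers. Endothelial markers summed to 180 to 294 CPM in DKO tumors and 152 to 232 in control livers. Stellate and fibroblast markers summed to 230, 188, 582 and 157 CPM in DKO tumors 1 to 4. In control livers they summed to 271 to 391 CPM. The part of these cells in the Igfbp3 values was not tested.

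Igf1r, the IGF receptor (Entrez 16001, chromosome 7, 75097713 to 75371484, plus strand), had 21 to 73 counts per library. It was at 2.6, 2.58, 2.1 and 3 CPM in control livers, 2.76, 2.45, 4.32 and 2.3 in DKO tumors and 2.47, 3.06, 2.84 and 2.76 in TKO tumors. The groups overlapped, with DKO 3 the highest. The log2 change was 0.21 in DKO (interval -0.32 to 0.73) and 0.11 in TKO (interval -0.42 to 0.64).

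Per exon length, as CPM per kilobase of exon, Igfbp2 had the highest control level (135 ± 71.3, SD, n = 4), followed by Ghr (98.1 ± 19.4) and Igf1 (81.6 ± 8.87), which overlap within their spread. Igfals followed at 38.6 ± 7.75, Igfbp1 at 16.6 ± 8.14, Igfbp3 at 9.34, Stat5b at 8.68, Cish at 4.75, Socs2 at 3.3 and Igf1r at 0.574. Igfbp1 and Igfbp3, Igfbp3 and Stat5b, and Cish and Socs2 were neighbors closer than their spread. In DKO tumors, the same scale put Igfbp1 first at 189 ± 114, ahead of Ghr at 60.4 ± 12.2, Igf1 at 59.5 ± 26.3 and Igfbp2 at 50.1 ± 38. In TKO tumors Igfbp2 was again first at 131 ± 127, with Ghr at 66.9 ± 21.3, Igfbp1 at 49.2 ± 53.5 and Igf1 at 46.5 ± 21.9, all overlapping. With the longest transcript as length, Ghr in control livers came to 213 and Igfbp2 to 191, which exchanges their order.

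Set against each other per length, the 3 binding proteins had a different make-up in DKO tumors. Igfbp1 made up 10.7%, 9.6%, 6.23% and 15.6% of their sum in control livers 1 to 4, and 70.4%, 66.8%, 51.7% and 77.8% in DKO tumors. In TKO tumors it made up 10.7%, 28.8%, 13.5% and 56.5%. Igfbp2 made up 74.5% to 87.6% in control livers, 4.11% to 30.2% in DKO and 19.5% to 84.1% in TKO tumors. DKO and control shares did not overlap for either gene, and TKO shares spanned most of the range between. The shares leave out the other IGF binding proteins. Of those, Igfbp4 stood at 1690 to 1920 CPM in control livers, 1190 to 1750 in DKO and 1380 to 1660 in TKO tumors. In CPM it was above each of the 3 in every library, and edgeR did not call it. The measure of shares was chosen after the values were seen and was not tested.

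**Figure D3:**
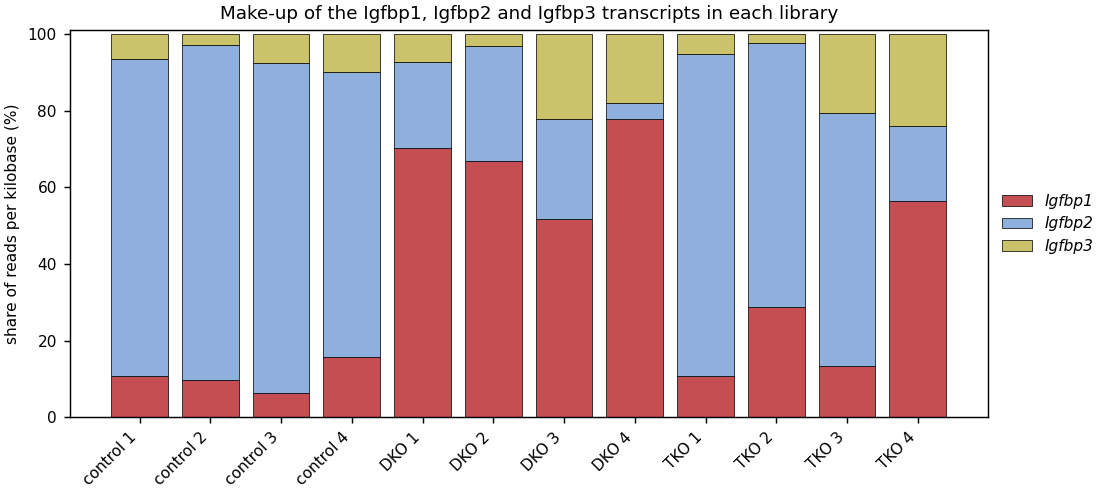
Share of Igfbp1, Igfbp2 and Igfbp3 in their summed level per length, in percent, with 1 stacked bar per library. Igfbp2 holds 74.5% to 87.6% of each control bar and Igfbp1 51.7% to 77.8% of each DKO bar.

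Between the tumor genotypes, edgeR called 0 members and 0% of all tested genes (0 of 13882). At an unadjusted p under 0.05, 2 members, Igfbp1 and Igfbp3, stood out against 9.00% of all genes. DESeq2 called 0 members against 0.398% of its tested genes, and no member's TKO and DKO values were without overlap, against 4.87% of all genes. Igfbp1 differed by -1.94 on the log2 scale (TKO minus DKO, SE 0.69, interval -3.44 to -0.45), with an edgeR adjusted p of 0.482 and an exact permutation p of 0.0857, and by -3.05 without TKO 2. Igfbp3 differed by -1.27 (SE 0.546), with an edgeR adjusted p of 0.554, and by -0.48 without DKO 4. Igfbp2 differed by 1.39 (SE 0.762), with an edgeR adjusted p of 0.6, by 0.55 without TKO 2 and by 2.04 without DKO 2. A difference between DKO and TKO was therefore not shown for any member, and the Igfbp1 call in DKO alone does not show one.

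Of 40 further genes of the pathway (other receptors, kinases, adaptors, binding proteins and repressors), 36 were tested, edgeR called none in any comparison, and the median log2 change was 0.05 in DKO and 0.04 in TKO. At an unadjusted p under 0.05, 6 of the 36 passed in DKO, against 24.0% of all genes, and 4 in TKO, against 16.3%. DESeq2 called 3 in DKO, against 10.4% of its tested genes, and 1 in TKO, against 3.49%, so the list did not stand above the background. The highest in DKO were Stc1, a secreted protein that inhibits the protease of IGF binding proteins, and Grb10, an adaptor that dampens the insulin and IGF receptors. Stc1 stood at 3.32 on the log2 scale (SE 1.02, edgeR adjusted p 0.0855), with 19.4 CPM in DKO 4 and 0.71 to 2.99 in the other DKO tumors. Grb10 stood at 1.01 (SE 0.322, edgeR adjusted p 0.0903). The lowest were Igf2, the fetal IGF, at -3.2 (SE 1.57, edgeR adjusted p 0.24) and Igf2bp2, an RNA-binding protein, at -1.34 (SE 0.5, edgeR adjusted p 0.128).

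Igf2 varied widely within each group. It was at 0.742, 35.2, 0.678 and 57.9 CPM in control livers, 0.843, 5.85, 3.25 and 0.413 in DKO tumors and 0.301, 45.8, 25.5 and 0.671 in TKO tumors. In TKO the highest were Bcl6, a repressor of Stat5 targets, at 1.05 (SE 0.581) and Grb10 at 0.74, and the lowest were Onecut1, a hepatocyte transcription factor, at -1.1 (SE 0.523) and Prlr, the prolactin receptor, at -0.92 (SE 0.404). Pik3r1, a regulatory subunit of the kinase below the insulin and IGF receptors, was named after its values were seen. It was the one pathway gene that DESeq2 called in TKO, at -0.72 in edgeR (edgeR adjusted p 0.13, DESeq2 adjusted p 0.019). DESeq2 called Pik3r1 in DKO as well, at -0.61 in edgeR (edgeR adjusted p 0.0772, DESeq2 adjusted p 0.0299).

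The pattern of growth hormone release differs between male and female mice, and sets apart many liver genes by sex. Xist, the X-inactivation RNA, had 1 to 6 counts in every library, and Ddx3y, Uty and Eif2s3y of the Y chromosome were expressed in all 12. Of 16 male-biased target genes, all tested, 13 were below 0 in DKO with a median of -1.41, where 48.4% of all genes were below 0 and their median was 0.02. edgeR called 1 of them, Nudt7, a peroxisomal hydrolase of coenzyme A. At an unadjusted p under 0.05, 7 were lower, against 11.1% of all genes. DESeq2 called 6 of the 16 as lower, against 4.75% of its tested genes. The list holds near-identical copies, such as Cyp4a12a and Cyp4a12b, whose reads could be split.

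Nudt7 was at 424, 417, 547 and 289 CPM in control livers and 57.6, 76.3, 203 and 65.9 in DKO tumors, with no overlap. It was at 139, 103, 315 and 358 in TKO tumors, which overlapped the controls. Its log2 change in DKO was -2.06 (SE 0.48, edgeR adjusted p 0.0488). The call was lost without any of the 4 control livers, DKO 1, 2 or 4, or TKO 1. Hsd3b5, a steroid reductase with marked male bias, was named after its values were seen. It was at 52.5, 126, 212 and 47.5 CPM in control livers, 8.74, 26.3, 18 and 5.54 in DKO tumors and 29.9, 21.5, 284 and 23.9 in TKO tumors, with a log2 change of -2.9 in DKO (SE 0.907, edgeR adjusted p 0.0871). In TKO 13 of the 16 were below 0 with a median of -0.65, where 47.5% of all genes were below 0, and edgeR called none. At an unadjusted p under 0.05, 2 were lower in TKO, where 16.3% of all genes passed in either direction. DESeq2 called 1 in TKO, Slco1a1, an organic anion transporter named after its values were seen. Slco1a1 was at 881, 965, 1170 and 1150 CPM in control livers, 358, 510, 646 and 638 in DKO tumors and 473, 339, 581 and 335 in TKO tumors, so neither tumor group overlapped the controls. Its log2 change was -0.95 in DKO (SE 0.251, edgeR adjusted p 0.062, DESeq2 adjusted p 0.00373) and -1.27 in TKO (SE 0.253, edgeR adjusted p 0.0908, DESeq2 adjusted p 7.92e-05).

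Of 20 female-biased target genes, 13 were above 0 in DKO with a median of 1.55, where 51.6% of all genes were above 0. edgeR called none. At an unadjusted p under 0.05, 9 were higher, against 12.9% of all genes, and 1 lower. DESeq2 called 4, all higher, against 5.70% of its tested genes. Single libraries set the largest values. Cyp17a1, a steroid hydroxylase, was at 489 CPM in DKO 1 and 4.01 to 7.39 CPM in the other DKO tumors. Sult3a1, a sulfotransferase, was at 480 CPM in DKO 4 and 4.9 to 6.27 CPM in the others. Their log2 changes were 4.91 (SE 1.46, edgeR adjusted p 0.0805) and 4.69 (SE 1.5, edgeR adjusted p 0.0916). The lowest were Cyp4a14 at -1.63 (SE 0.677) and Ntrk2 at -1.26 (SE 0.952). In TKO 10 of the 20 were above 0, with a median of 0.02. The genes below 0 include Cyp3a41a (-0.54) and Cyp3a41b (-0.62), near-identical copies whose reads could be split. They also include the further Cyp3a genes Cyp3a44 (-0.54) and Cyp3a16 (-0.66). At an unadjusted p under 0.05, 6 were higher in TKO and 2 lower, where 16.3% of all genes passed in either direction. DESeq2 called 0 of them, against 3.49% of its tested genes. The highest in TKO were Sult2a2 at 2.78 (SE 1.16) and Sult2a1 at 2.35 (SE 1.03), near-identical copies whose reads could be split. The lowest were Acot3 at -1.8 (SE 0.816) and Ntrk2 at -1.6 (SE 0.964).

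**Figure D4:**
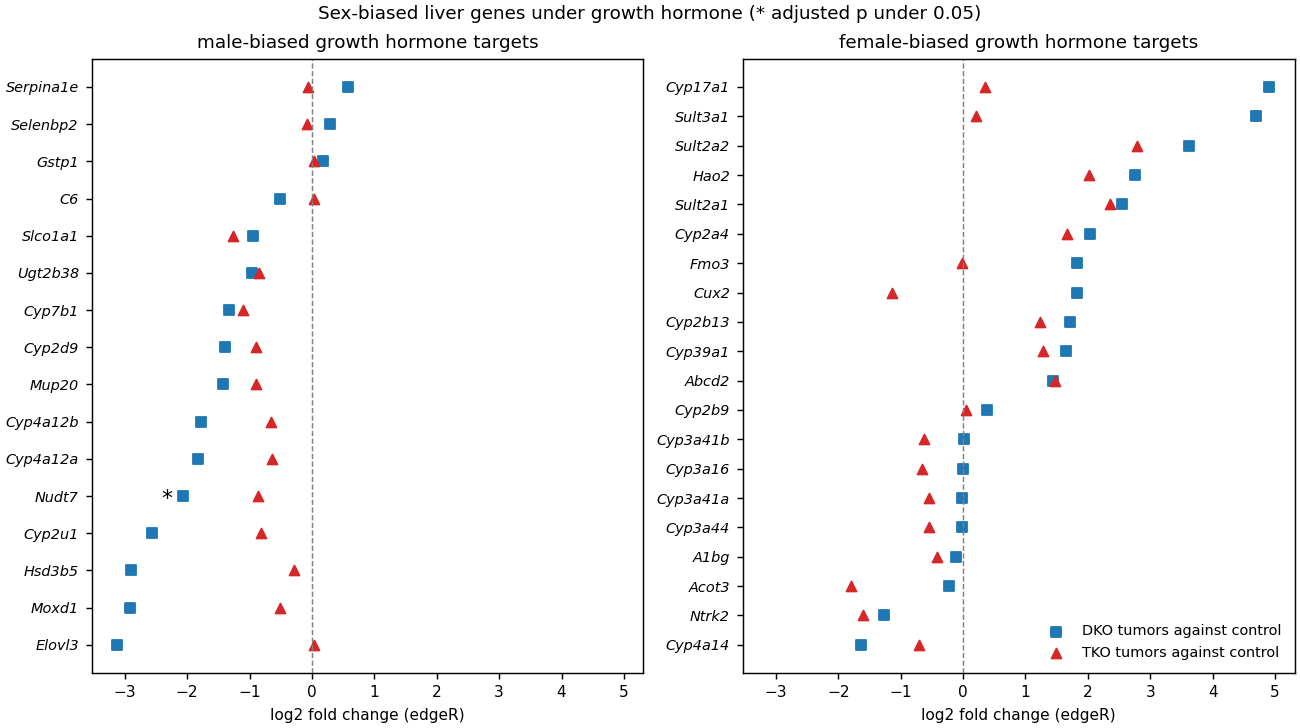
Log2 fold change against control livers of the 16 male-biased and 20 female-biased target genes in DKO and TKO tumors, 1 square (DKO) and 1 triangle (TKO) per gene, with a star at the gene called by edgeR, Nudt7 in DKO. Male-biased genes lie mostly left of 0 in DKO (median -1.41) and female-biased genes mostly right of it (median 1.55).

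Igfbp1 is also a fasting gene, so 16 genes of the insulin and fasting response were followed. The feeding state at harvest is not given in the sources used here. edgeR called none in any comparison, and the median log2 change was 0.13 in DKO and 0.1 in TKO. At an unadjusted p under 0.05, 3 of the 16 were higher in DKO, against 12.9% of all genes, and 1 lower, against 11.1%. In TKO 2 were higher, where 16.3% of all genes passed in either direction. DESeq2 called 2 as higher in DKO, against 5.70% of its tested genes. These were Pdk4 (DESeq2 adjusted p 0.00465) and Ddit4 (DESeq2 adjusted p 0.0146), a stress-induced inhibitor of mTOR signaling named after its values were seen. In TKO DESeq2 called 1, Fgf21 (DESeq2 adjusted p 0.0357), against 3.49% of its tested genes in either direction. Pdk4, a kinase that rises in fasting, had the highest change in DKO at 2.42 (SE 0.674, edgeR adjusted p 0.0709). It was at 4.83, 32.4, 5.5 and 29 CPM in DKO tumors 1 to 4 and 3.63, 3.69, 2.1 and 4.03 in control livers. DKO 2 and 4 were the highest DKO tumors for both Pdk4 and Igfbp1. TKO 2, the highest TKO tumor for Igfbp1, had Pdk4 at 3.27 CPM, within the control range. TKO 4 had the highest Pdk4 of its group, 13.2 CPM. These libraries were compared after the values were seen, and a link between Pdk4 and Igfbp1 was not tested. Fgf21, a fasting hormone of liver, stood at 1.36 in DKO (SE 0.659) and 2.11 in TKO (SE 0.663, edgeR adjusted p 0.169). The gluconeogenic gene Pck1, which also rises in fasting, was lowest, at -1.43 in DKO (SE 0.771) and -1.65 in TKO (SE 0.776). Next lowest were G6pc at -0.6 in DKO (SE 0.64) and Tat at -0.55 in TKO (SE 0.429), both enzymes of the same fasting program. G6pc went the other way in TKO, at 0.68 (SE 0.639), with 486 CPM in TKO 3, and Tat stood at -0.45 in DKO (SE 0.429). In TKO Pdk4 stood at 0.98 (SE 0.664).

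The lowest and highest member values of the 12 libraries came from control livers as well as tumors. Control liver 3 was highest for Ghr and lowest for Igfbp1 and Igf1r, and the other control livers were highest for Igf1, Cish and Igfals and lowest for Igfbp3. TKO 4 was lowest of all 12 libraries for 4 members, Igf1, Socs2, Cish and Igfbp2, and had the lowest albumin share. DKO 4 was highest for Igfbp1 and Igfbp3 and lowest for Igfals. TKO 2 was highest for Socs2 and Igfbp2 and lowest for Ghr. No marker gene of endothelial, stellate, macrophage, lymphocyte or biliary cells was called by edgeR in any comparison. Macrophage markers were below 0 in DKO for 7 of 8 genes, with a median log2 change of -0.94, and lymphocyte markers for 6 of 6, with a median of -0.59. In TKO 1 of 8 macrophage markers and 1 of 6 lymphocyte markers were above 0, with medians of -0.29 and -0.22. Biliary markers were above 0 for 5 of 6 genes in DKO, with a median of 0.73, and 4 of 6 in TKO, with a median of 0.48. Endothelial markers were above 0 in TKO for 8 of 8, with a median of 0.42, and in DKO for 6 of 8, with a median of 0.22. Stellate and fibroblast markers were above 0 for 5 of 8 in DKO, with a median of 0.07. In TKO 4 of 8 were, with a median of -0.11. The part of these cells in the members' values was not tested.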

How the data were processed

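Poly(A) RNA of 12 mouse livers and liver tumors was sequenced on a SOLiD instrument. Per the labels and the submitters' processing notes, the authors aligned reads to mm9 using BWA and assigned them to genes using featureCounts. What they deposited is a table of raw counts, not normalized. Versions, strand and the handling of reads with several matches are not given in the sources used here. The study's methods give 4 livers per condition. The 10 members and all lists, written from general knowledge, were chosen with earlier results of these data known, and the further lists share no member.

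Counts were fitted with edgeR 4.0.16 (R 4.3.3; TMM, filterByExpr, quasi-likelihood test, Benjamini-Hochberg adjustment, threshold 0.05) with a mean per group over all 12 libraries. DESeq2 1.42.0, the tool of the study, and limma 3.58.1 (voom with quality weights) were alternatives, as were other scalings, filters, library sets, a replicate block, a Y-linked covariate and leaving out each library. Exact permutation tests used log2 CPM with a prior count of 2. The scripts were tested on simulated data. Of 26301 Entrez genes, 24191 had a symbol (99.4% of counts). Lengths and mm9 coordinates came from GENCODE vM1. The precision of low genes is bounded by the totals, and intervals cover the spread between libraries. Named genes were all members, the list genes edgeR called, and where none was called the 2 highest and 2 lowest of each comparison against control. Others are said to be chosen later.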

Additional observations from a re-analysis of the deposited data

Results flagged for a closer look

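On log2 CPM, the gap of 1 library to the nearest other was taken relative to the whole range of its group of 4. This ratio passed Dixon's critical value for 4 samples at the 95% level in 3 of 30 groups of member values. Chance gives about 1 in 20. All 3 flagged values were from control livers. Control liver 2 held 57.5 CPM of Stat5b against 44.3 to 45.7 in the others (ratio 0.884). Control liver 1 held 78.2 CPM of Igfals against 121 to 124 (ratio 0.938), and without it the log2 change of Igfals in DKO was -1.17 in place of -1.03. Control liver 2 also held 447 CPM of Igfbp2 against 170 to 194 (ratio 0.865), and without it the log2 change of Igfbp2 was -0.99 in DKO and 0.4 in TKO, in place of -1.43 and -0.04. Leaving out DKO 2 moved the DKO value the other way, to -2.09. The causes were not tested.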

How the results depend on the processing

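In DKO tumors edgeR called 1 member, DESeq2 4, voom with quality weights 3, the fit of the 8 libraries of the comparison 2 and an adjusted p under 0.1 4, and leaving out 1 library gave 0 to 2. At the threshold of 0.1 the weakest member was Igfals (edgeR adjusted p 0.0961). It ranked 1397 by p, so at least 1397 of 13882 tested genes passed too. With a Y-linked covariate 0 members and 0 of all genes were called, and Igfbp1 stood at 3.42 with an adjusted p of 0.295 in edgeR. That covariate was the mean log2 CPM of Ddx3y, Uty, Kdm5d and Eif2s3y. Genes of the Y chromosome were expressed in every library, so it does not contrast the sexes. It takes in the low Kdm5d of DKO 1, DKO 2 and TKO 1 described below. In TKO tumors and between the tumor genotypes 0 members were called under each of these alternatives. With the replicate block, 1 member (Igfbp1) and 509 of all genes were called in DKO, against 336 without it. The numbers name different mice, the deviations of same-numbered libraries correlated at -0.174 to 0.37, and 6 of 12 libraries correlated best with their own number. Over all genes, DKO calls came to 1518 with DESeq2, 1804 with voom, 759 with the 8 libraries, 59 with total counts as the only scaling and 0 to 651 without 1 library, and TKO calls to 0 to 231 without 1 library, against 12. Total counts moved the median of all genes in TKO from 0.02 to 0.17. Of 220 fits of a member per comparison, 3 in DKO, 4 in TKO and 6 between the genotypes changed direction, none of them called. In DKO these were Socs2 without control 2 (0.09) or DKO 1 (0.14) and Igf1r without DKO 3 (-0.04), and without 1 library in turn they ran from -0.34 to 0.14 and from -0.04 to 0.31. In TKO it was Igfbp2, with total counts (0) and without control 2 (0.4), TKO 3 (0.17) or TKO 4 (0.33), from -0.89 to 0.4. Between the genotypes they were Ghr without TKO 3 (-0.06 to 0.31), Stat5b with voom (-0.01) and without TKO 3 (-0.08 to 0.17), Socs2 without TKO 4 (-0.83 to 0.02), Cish without TKO 2 (-0.07 to 0.83) and Igf1r without DKO 3 (-0.2 to 0.15). The male-biased list, with 1 gene called in DKO, had 4 with the block, 6 with DESeq2, 8 with voom and 0 to 5 without 1 library. The causes were not tested.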

Other observations

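Kdm5d, a histone demethylase gene of the Y chromosome, differed between tumors. It had 28 counts in DKO 1, 14 in DKO 2 and 38 in TKO 1, against 131 to 243 in the other 9 libraries, where Ddx3y had 472 to 1126 counts in all 12. These genes were chosen to check the sex of the mice, and the difference was noticed after the values were seen and was not tested.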
